A study of Mus musculus with 2 samples.

Results

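RNAs of glucagon and of 3 other secreted proteins, grouped as α-cell proteins, were followed across the islet cells of 2 mouse single-cell libraries. Release was not measured. Gcg defined the glucagon class, so its level there could not bear on the name. By sums over whole classes the name held for Ttr, while Fgb in both libraries and Gc in control were highest in the pancreatic polypeptide class. The lead of the glucagon class over the insulin class in Ttr was 15.1-fold in control and 2.75-fold in the other library. The 4 genes, of 22383 features in the count tables, were named by symbol: Gcg, Ttr, Gc and Fgb. Each symbol matched 1 feature. Their unique molecular identifiers (UMIs, each standing for 1 captured RNA molecule) were read per cell barcode and as sums over the barcodes of a hormone class. A barcode was put in the insulin, glucagon, somatostatin or pancreatic polypeptide class by the largest of Ins1 plus Ins2, Gcg, Sst and Ppy, at 100 or more UMIs per 10000. Barcodes with more than 2500 genes and under 10% mitochondrial UMIs were kept, with no upper limit on genes.

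Both libraries were made from islets of 5-week-old mice on a C57BL/6N background that carried loxP-flanked Tbl1x and Tbl1xr1 alleles, genes of transcriptional co-factors. Mice of the library labelled TBL/RβKO also carried Cre inserted at the Ins1 locus, active in β-cells, and the controls were littermates without Cre. For each library 150 islets of 4 mice were pooled and kept overnight at 37 °C. With 1 library per group no difference could be tested, and every interval given is a 95% interval of counting error alone, which treats UMIs of 1 barcode as independent.

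Gcg encodes proglucagon, which α-cells cut into glucagon with the convertase Pcsk2. Glucagon raises the release of glucose from the liver. Ttr encodes transthyretin, a plasma carrier of thyroxine that also binds the retinol carrier Rbp4. Gc encodes the vitamin D binding protein, and Fgb the β chain of fibrinogen, the clotting protein that is built from the α, β and γ chains of Fga, Fgb and Fgg. The last 3 members are best known as proteins that the liver secretes into plasma.

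In GRCm39 with the GENCODE annotation, Gcg (ENSMUSG00000000394) lay on the minus strand of chromosome 2 from 62304873 to 62313997 and had 6 exons. Gc (ENSMUSG00000035540) lay on the minus strand of chromosome 5 from 89561689 to 89605757 with 13 exons, and Fgb (ENSMUSG00000033831) on the minus strand of chromosome 3 from 82947448 to 82957170 with 8 exons. The 200 bases before the start of transcription are shown for the 3 genes with a RefSeq window (build GRCm38.p6, gene strand, 5′ to 3′), since the 3 genes had different expression patterns over the islet classes. The windows were chr2:62483654-62483853 for Gcg, chr5:89457899-89458098 for Gc and chr3:83049864-83050063 for Fgb. Capitals mark matches to 4 motifs, searched on both strands. The TATA box was searched for as TATAAA. For FOXA factors their core was used, TATTTAC or the form TGTTTAC. For HNF1 factors most of their site was used, the letters GTTAATNAT. The E-box of this search had the letters CAGATG. Each line names the member before its window.
Gcg: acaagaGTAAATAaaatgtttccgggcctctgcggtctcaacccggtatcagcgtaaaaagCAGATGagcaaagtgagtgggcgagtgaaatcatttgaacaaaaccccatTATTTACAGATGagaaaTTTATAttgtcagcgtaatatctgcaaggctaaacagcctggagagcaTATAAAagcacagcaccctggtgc
Gc: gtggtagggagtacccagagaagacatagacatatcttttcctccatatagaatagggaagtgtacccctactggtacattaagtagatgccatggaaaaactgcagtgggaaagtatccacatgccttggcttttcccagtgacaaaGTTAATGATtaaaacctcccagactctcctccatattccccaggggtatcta
Fgb: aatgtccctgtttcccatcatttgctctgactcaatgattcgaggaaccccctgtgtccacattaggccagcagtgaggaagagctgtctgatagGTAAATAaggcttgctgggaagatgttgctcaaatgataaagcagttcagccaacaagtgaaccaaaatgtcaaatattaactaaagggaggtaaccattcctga

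The Gcg window held TATAAA in gene orientation with its first base 24 bases before the start, and a match to it on the opposite strand at 72. It also held 2 FOXA cores, at 194 on the opposite strand and at 89, and 2 E-boxes, at 139 and 83. The core at 89 and the E-box at 83 shared a C. The Gc window had 1 match, to the HNF1 motif at 52. The Fgb window had 1 FOXA core, on the opposite strand at 105. Only exact matches were counted. The letters aatattaac of the Fgb window, read on the opposite strand, differ from the HNF1 motif in 1 letter and were left out. Over 32851 windows of 250 bases before a start, 12.4% held TATAAA, 5.76% a FOXA core, 14.4% the E-box and 0.737% the HNF1 motif, the last being 242 windows. These matches are letters in a window and show no binding.

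The control library held 7067 barcodes with 241434108 UMIs and the TBL/RβKO-labelled library 5833 with 185062206, of which 4747 and 4179 barcodes were kept. Barcode sequences found in both numbered 14. A Cre feature was counted in 20.5% of the insulin class of the TBL/RβKO-labelled library and in 0 control barcodes of any class. Against that label, the insulin class had more Tbl1x, with 96.9 UMIs per 1000000 UMIs (CPM) in control and 351 CPM in the other library, and more Tbl1xr1, with 20.0 and 129 CPM. UMIs come from the 3′ end, which can lie outside a deleted part, so these levels do not show whether the deletion took place. They are the reason why the second library is called by its label throughout.

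The glucagon class was a larger share of the TBL/RβKO-labelled library. The insulin class, from which the shares are not independent, was smaller there, at 35.7% against 62.0% in control, and the somatostatin class (4.80% and 9.97%) and the polypeptide class (5.58% and 13.2%) were larger by a higher factor than the glucagon class. The glucagon class held 1284 of 4643 barcodes with a class in control (27.7%, 26.4 to 29.0, exact binomial interval) and 1546 of 3753 (41.2%, 39.6 to 42.8). The difference was 13.5 percentage points (Newcombe interval 11.5 to 15.6). It was 22.8 points among barcodes with under 6000 genes, a limit that took 1423 of 2877 control insulin class barcodes and 1026 of 1338 of the other library. The class carried the α-cell markers Irx2 and Slc7a2 in both libraries. Irx2 stood at 109 CPM in the control glucagon class and 3.63 CPM in the control insulin class, and Slc7a2 at 815 and 114 CPM. In the TBL/RβKO-labelled library Irx2 stood at 90.8 and 5.66 CPM, and Slc7a2 at 816 and 74.8 CPM. Median depth was 19733 UMIs in the control glucagon class and 18800.5 in the other. Insulin had a median of 97.1 UMIs per 10000 in the control glucagon class and 18.6 in the other. Barcodes without a hormone had a median of 66.5 in control. In the other library it was 15.6 over the 420 of them with 0 Fgb UMIs, so this background was also lower there. The β-cell hormone gene Ins1 stood at 2731 and 471 CPM in the glucagon classes, a log2 ratio of -2.54. A limit of 100 on the second hormone therefore removed 765 of the 1284 control barcodes and 314 of the 1546 others, and took the difference in shares to 42.1 points. A further 169 and 504 barcodes of the glucagon class lay outside the filter on genes and mitochondrial UMIs. Non-endocrine cells were represented by 153 and 261 barcodes, with medians of 21279 and 21213 UMIs per barcode. They were chosen by summed markers of macrophages, endothelium, stroma, B cells, ducts, acini and Schwann cells at 50 or more UMIs per 10000. Their largest hormone lay under 500 per 10000, a limit above that of the classes. Some of them therefore also lay in a hormone class, and Gcg reached 450 and 440 per 10000 in single ones.

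Gcg was the defining RNA of the glucagon class, and it stood lower in the TBL/RβKO-labelled library. Its level was 190264 CPM (exact Poisson interval 190104 to 190423) in control and 144419 CPM (144291 to 144548) in the other, a log2 ratio of -0.40, or 1.32-fold higher in control. Over single barcodes, Gcg per 10000 UMIs ran from 110 over a median of 1886 to 4699 in control. In the TBL/RβKO-labelled library it ran from 102 over 1371 to 4998. The ranges overlapped almost fully, while the 25th percentile moved from 1370 to 909 and the 75th from 2424 to 1948. The log2 ratio lay between -0.48 and -0.34 under every change of setting made for it. The median of all 8802 genes compared in the glucagon class, those at 10 CPM or more over both libraries, was 0.10 with an SD of 0.24.

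Outside the glucagon class Gcg had the same order of classes in both libraries: pancreatic polypeptide, insulin, somatostatin, then barcodes with no hormone. The polypeptide class had 14271 CPM in control and 9987 CPM in the TBL/RβKO-labelled library, and the somatostatin class 4753 and 3469 CPM. The insulin class had 5305 and 7310 CPM. These sums came from few barcodes. In the insulin class 252 of 2877 control barcodes (8.76%) and 243 of 1338 (18.2%) held 100 or more Gcg UMIs per 10000. The median was 5.11 and 5.36 per 10000, no higher than the 6.74 and 5.94 of non-endocrine barcodes, which is the level that free RNA gives. The insulin class ratio of 0.46 was -0.02 once hormone and mitochondrial genes were left out of the total, so its direction depended on the scaling. Under the other changes of setting it lay between 0.24 and 1.16. Insulin itself took less of the total in the TBL/RβKO-labelled library, with a median of 2365 UMIs per 10000 in its insulin class against 5089 in control. Insulin class barcodes with 100 or more Gcg UMIs per 10000 had a median depth of 78504.5 and 83602 UMIs. At under 10 it was 53363 and 66254 UMIs. Without the highest doublet scores Gcg in the insulin class was 2746 and 5381 CPM, and with under 6000 genes 1305 and 2926 CPM. The cause of these moves was not tested.

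**Figure D1:**
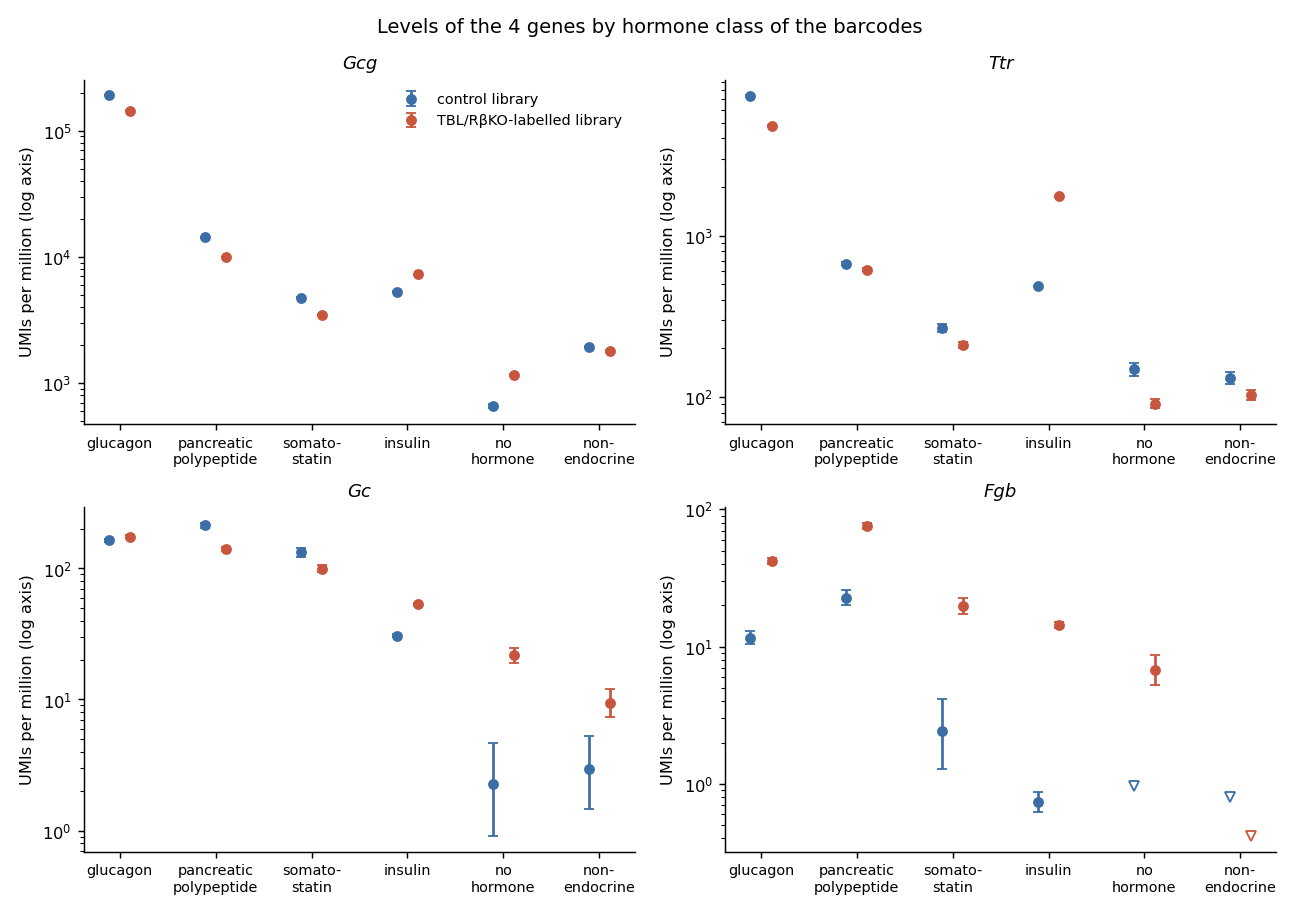
CPM (log axis) of Gcg, Ttr, Gc and Fgb in the sums over each hormone class and over non-endocrine barcodes, 1 point per library with exact Poisson 95% intervals; open triangles mark sums with 0 UMIs, drawn at the level of 3 UMIs. Gcg and Ttr were highest in the glucagon class, and Fgb was highest in the polypeptide class of both libraries. Gc was highest in the polypeptide class in control and in the glucagon class in the TBL/RβKO-labelled library.

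Ttr (ENSMUSG00000061808, GRCm39, plus strand of chromosome 18 from 20797253 to 20807467, 4 exons) followed Gcg. In the glucagon class it stood at 7363 CPM (7332 to 7395) in control and 4809 CPM (4785 to 4832) in the TBL/RβKO-labelled library, a log2 ratio of -0.61 (-0.62 to -0.61), or 1.53-fold higher in control. Per barcode, Ttr UMIs per 10000 had a median of 47.5 (5th to 95th percentile 6.62 to 245) in control and 27.6 (3.38 to 159) in the other. The 2 spreads overlapped over most of their length. Ttr was lower than in control at every decile of the barcodes between the lowest and the highest. The glucagon class of the 2 libraries held 38.7 and 33.3 Ttr UMIs for each 1000 Gcg UMIs, counts of 3′ ends that need no correction for length.

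Within the glucagon class Ttr was higher in barcodes with more Gcg. The barcodes were split by Gcg UMIs per 10000, and levels are hormone-free CPM, which are UMIs per 1000000 UMIs of all genes but the hormones and the mitochondrial genes, so that Gcg itself could not lower them. In control, Ttr stood at 2509 at 100 to 300 Gcg (46 barcodes), 4331 at 300 to 1000 (115), 7081 at 1000 to 2000 (555) and 14945 at 2000 or more (568). In the TBL/RβKO-labelled library the same steps gave 1600 (118 barcodes), 3171 (325), 5777 (739) and 11549 (364). In each step Ttr was lower in that library, and the lowest steps held a larger part of its barcodes. Spearman's rho of Gcg and Ttr over barcodes, each over the UMIs without hormone and mitochondrial genes, was 0.56 over 1284 and 0.59 over 1546. The points of a library share its library preparation and that denominator.

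**Figure D2:**
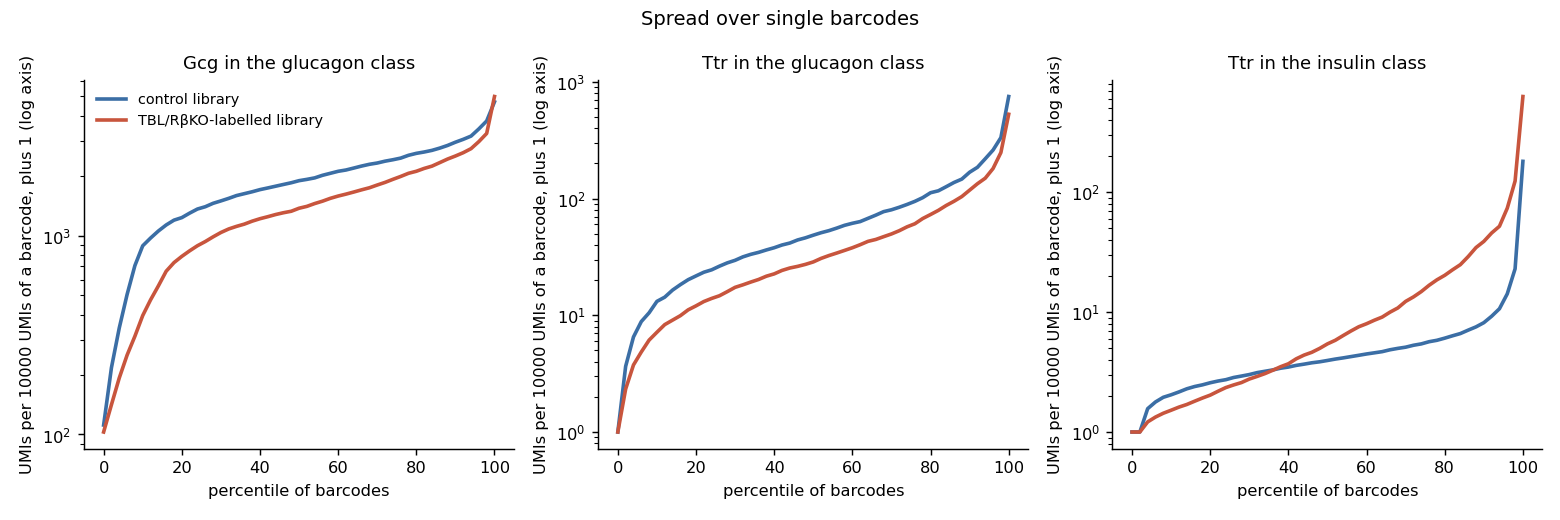
UMIs of Gcg and Ttr per 10000 UMIs of a barcode, plus 1 (log axis), against the percentile of barcodes, for the glucagon class and for Ttr in the insulin class, 1 line per library. In the glucagon class the line of the TBL/RβKO-labelled library runs below the control over most percentiles, while for Ttr in the insulin class the lines cross and its upper part lies above.

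In the insulin class the order of the libraries was the opposite. Ttr stood at 487 CPM (484 to 491) in control and 1748 CPM (1739 to 1756) in the TBL/RβKO-labelled library, 3.59-fold higher, with a log2 ratio of 1.84 (1.83 to 1.85). Of 7446 genes compared there, 7.21% lay 2-fold or more higher and 1.22% lower, around a median log2 ratio of 0.30. Among the 3 members that reached 10 CPM in both insulin sums together, Ttr was the one past 2-fold, Gcg and Gc were not. Without hormone and mitochondrial genes in the total the log2 ratio of Ttr was 1.36. It was 2.61 with under 6000 genes and 2.66 in barcodes without a second hormone at 100 per 10000, and 1.70 without the 10 barcodes of each library that held the most Ttr.

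The difference in the sum was carried by a part of the barcodes. The median Ttr per 10000 UMIs was 2.95 in the control insulin class and 4.43 in the other, while the 95th percentile was 11.0 and 63.1. Barcodes with 10 or more Ttr UMIs per 10000, a limit set after the data had been seen, were 165 of 2877 in control (5.74%, 4.91 to 6.65) and 424 of 1338 in the TBL/RβKO-labelled library (31.7%, 29.2 to 34.3). Among non-endocrine barcodes they were 1.31% and 0.383%. Any Ttr UMI was found in 97.9% and 97.1% of insulin class barcodes, and in 73.7% and 75.0% when each barcode was thinned to 5000 UMIs, against 15.7% and 16.5% of thinned non-endocrine barcodes (51.0% and 47.1% unthinned). No kept barcode was too shallow for the thinning.

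The library labelled TBL/RβKO had more Ttr also in barcodes with little Gcg. Insulin class barcodes with under 10 Gcg UMIs per 10000, at the level of free RNA, numbered 2446 in control and 959 in the other library. Ttr stood there at 709 (702 to 715) and 2337 (2323 to 2351) hormone-free CPM. Of these barcodes 28 (1.14%) and 245 (25.5%) had 10 or more Ttr UMIs per 10000.

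Among these barcodes Ttr was highest where insulin was highest. Among the same barcodes with little Gcg, Ttr in the TBL/RβKO-labelled library stood at 1088 where insulin was 100 to 1000 UMIs per 10000 (155 barcodes), 1352 at 1000 to 3000 (379), 3201 at 3000 to 5000 (292) and 6510 at 5000 or more (133). The control values were 150 (28 barcodes), 387 (83), 596 (871) and 821 (1464). The 28 control barcodes of the lowest step had a median depth of 17349.5 UMIs. Their Ttr and Gc, at 150 and 1.90 hormone-free CPM, were near the 135 and 3.02 of control non-endocrine barcodes. In the other library that step had a median depth of 50212 UMIs and Gc at 75.9, so the lowest steps held unlike barcodes. In the barcodes with little Gcg, Ttr was higher at each insulin step in both libraries, and the TBL/RβKO-labelled library stood above control at every step. Over the whole insulin class the control had no such rise, with 491, 1612, 1077 and 953 hormone-free CPM over the 4 insulin steps, while the other library had 1156, 2025, 3872 and 6799. The last value lay above the 6021 of the whole glucagon class of that library. In its insulin class, 274 barcodes with a Cre UMI had 4289 hormone-free CPM of Ttr (4256 to 4323), and 1064 without one had 2223 (2210 to 2236). Median depth was 81403 and 64693 UMIs in these 2 sets, and a Cre UMI is found more easily in deeper barcodes. Median insulin was 3123 and 2149 UMIs per 10000 in the same sets. The part of depth and insulin in the Ttr difference between the 2 sets was not tested. Further measures differed between the insulin classes of the libraries beside Ttr. Median depth was 53346 UMIs in control and 67897 in the other, and the summed polypeptide markers Ppy and Pyy stood at 7572 and 52811 CPM. The 4 ductal markers summed to 183 and 650 CPM, with Krt19 at 1.12 and 63.6 CPM, Spp1 at 23.8 and 150 CPM and Krt7 at 157 and 434 CPM. The 6 stromal markers summed to 22.5 and 79.6 CPM, most of it Mgp. Their part in the Ttr difference was not tested.

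**Figure D3:**
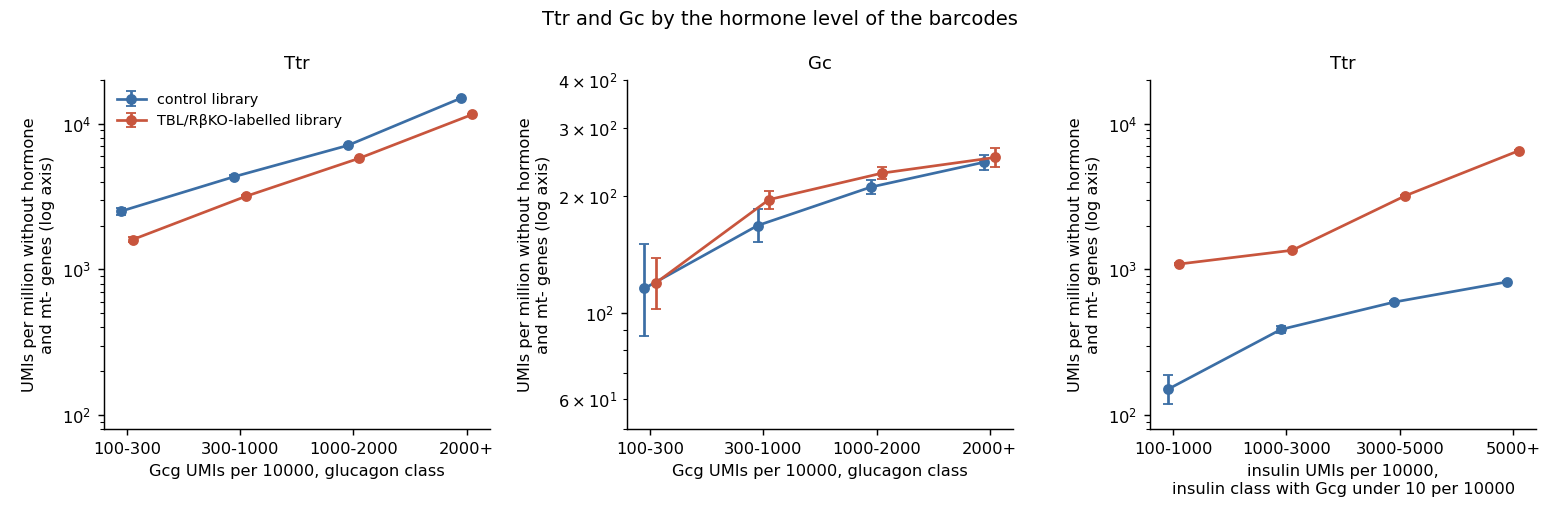
Hormone-free CPM of Ttr and Gc (log axes) by Gcg step in the glucagon class, and Ttr by insulin step in insulin class barcodes with under 10 Gcg UMIs per 10000, 1 line per library with exact Poisson 95% intervals. Ttr is higher at each step, from 2509 to 14945 with Gcg in control and from 1088 to 6510 with insulin in the TBL/RβKO-labelled library.

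In the remaining classes Ttr was low. The polypeptide class had 671 CPM (656 to 686) in control and 617 CPM (606 to 627) in the TBL/RβKO-labelled library, and the somatostatin class 267 CPM (254 to 282) and 211 CPM (202 to 220). Non-endocrine barcodes had 131 and 103 CPM with a median of 1 and 0 UMIs. In control the order of classes was glucagon, polypeptide, insulin, somatostatin and no hormone. In the TBL/RβKO-labelled library insulin and polypeptide changed places, and no CPM intervals of neighbours in either order overlapped. In hormone-free CPM the control polypeptide and insulin classes lay close, at 1071 and 1048, beside 9752 in the glucagon class. The other library had 818, 2688 and 6021. By CPM over all UMIs, the glucagon class had 15.1-fold more Ttr than the insulin class in control. This was place 42 of 7545 genes compared, of which 31.9% were 2-fold or more higher. In the other library the factor was 2.75, place 699 of 8286, of which 22.4% were past 2-fold.

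Gc stood above the non-endocrine level in all 4 hormone classes, and lowest of these in the insulin class. In control it stood at 213 CPM (205 to 222) in the polypeptide class, 164 CPM (160 to 169) in the glucagon class, 132 CPM (123 to 143) in the somatostatin class and 30.6 CPM (29.8 to 31.4) in the insulin class. In the TBL/RβKO-labelled library the glucagon class came first with 175 CPM (171 to 180), before the polypeptide class with 140 CPM (135 to 145), the somatostatin class with 99.2 CPM (93.3 to 105) and the insulin class with 53.4 CPM (52.0 to 54.8). No intervals of neighbours overlapped within a library. Non-endocrine barcodes had 2.94 and 9.43 CPM.

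The glucagon class differed least between the libraries in Gc, with a log2 ratio of 0.09 (0.04 to 0.15), which is close to the median of all genes there, and 0.01 without hormone and mitochondrial genes. The polypeptide class had -0.61 (-0.69 to -0.53), the somatostatin class -0.42 (-0.56 to -0.28) and the insulin class 0.80 (0.75 to 0.86). The insulin class value was 0.32 without hormone and mitochondrial genes in the total. The polypeptide class also differed in other genes. Its median Ppy was 3210 UMIs per 10000 in control and 1209 in the other library, Glp1r stood at 33.2 and 274 CPM, Pcsk1 at 43.1 and 138 CPM, and the 9 β-cell markers summed to 25410 and 36520 CPM. The part of these in the Gc difference was not tested. None of the 4 values passed 2-fold. In the glucagon class 83.3% of control barcodes and 83.7% of the other library had a Gc UMI, with a median of 3 UMIs in both, and 51.3% and 50.5% after thinning. In the polypeptide class thinning left 61.4% (55.2 to 67.3) and 42.8% (38.4 to 47.3). Thinned non-endocrine barcodes had Gc in 2.61% and 3.07%.

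Gc moved less with Gcg than Ttr did. Over the 4 Gcg steps of the glucagon class it stood at 116, 168, 211 and 245 hormone-free CPM in control, and at 119, 196, 229 and 252 in the TBL/RβKO-labelled library. In the lowest and the highest step the intervals of the 2 libraries overlapped. Spearman's rho of Gc with Gcg was 0.14 and 0.18, weak for so sparse a gene. In the polypeptide class Gc had a rho of 0.37 and 0.51 with Ppy, over 259 and 495 barcodes.

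Fgb was found in few barcodes of the glucagon class, most of which held under 10 UMIs, and a small part of them carried most of its molecules. It had 334 UMIs in control, 11.6 CPM (10.4 to 12.9), and 1414 UMIs in the TBL/RβKO-labelled library, 42.1 CPM (40.0 to 44.4). The log2 ratio was 1.86 (1.69 to 2.04), or 3.63-fold higher. Of the 8802 genes compared in the glucagon class 0.682% lay 2-fold or more higher and 0.0454% lower, and Fgb was the only member past 2-fold there. Markers of other cell types differed in both directions. The 8 macrophage markers summed to 83.6 CPM in control and 42.4 CPM in the other library. The 6 endothelial markers summed to 31.8 and 10.7 CPM. The 4 ductal markers summed to 188 and 351 CPM in the glucagon class, with Spp1 at 64.8 and 194 CPM (log2 ratio 1.58) and Krt19 at 2 and 363 UMIs, while Krt7 differed by 0.26. The 6 stromal markers summed to 26.4 and 70.3 CPM, with Mgp at 15.8 and 33.7 CPM (1.09). Their part in the Fgb difference was not tested. The 10 barcodes with the most Fgb held 60.2% and 35.5% of its UMIs. Without them the levels were 4.66 and 27.4 CPM, with a log2 ratio of 2.55.

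An Fgb UMI was found in 92 of 1284 control glucagon class barcodes (7.17%, 5.81 to 8.72) and in 195 of 1546 of the other library (12.6%, 11.0 to 14.4), and in 2.73% and 6.21% after thinning. The polypeptide class had the highest shares, with 78 of 259 (30.1%, 24.6 to 36.1) and 194 of 495 (39.2%, 34.9 to 43.6), or 8.49% and 19.0% after thinning. None of 153 and 261 non-endocrine barcodes had an Fgb UMI. At 3 counts this allows shares of barcodes with a UMI of up to 1.96% and 1.15%, and sets no limit on barcodes with a low level of the RNA. Gcg was counted in every one of these barcodes and Fgb in none.

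The polypeptide class also had the highest level of Fgb, 22.8 CPM (20.1 to 25.8) in control and 75.7 CPM (72.0 to 79.5) in the TBL/RβKO-labelled library, a log2 ratio of 1.73 (1.54 to 1.93). Of 8349 genes compared in that class, 6.71% lay 2-fold or more higher and 0.299% lower. The glucagon class was second in both libraries. The somatostatin class had 13 UMIs, 2.43 CPM (1.29 to 4.15), and 206 UMIs, 19.8 CPM (17.2 to 22.7), of which 1 barcode held 179. The insulin class had 135 UMIs, 0.741 CPM (0.621 to 0.877), and 1457 UMIs, 14.4 CPM (13.7 to 15.2), a log2 ratio of 4.28 (4.03 to 4.55). With under 6000 genes these levels were 0.124 and 0.848 CPM, with a log2 ratio of 2.78. The class without a hormone had 0 UMIs in 104 control barcodes, which at 3 UMIs allows 0.967 CPM, and 6.81 CPM in 426 barcodes of the other library, 62 of its 68 UMIs in 1 barcode.

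Barcodes with 10 or more Fgb UMIs, a limit set after the data had been seen, were 10 (0.779%) and 35 (2.26%) in the glucagon class, 4 (1.54%) and 43 (8.69%) in the polypeptide class, and 3 (0.104%) and 24 (1.79%) in the insulin class. The 24 insulin class barcodes of the TBL/RβKO-labelled library held 85.7% of the Fgb UMIs of their class, up to 272 in 1 barcode. Their median depth was 100758 UMIs, against 66762.5 in barcodes of that class with 0 Fgb UMIs. In the glucagon class the depths differed less, with 22822 and 18575 UMIs.

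Glucagon class barcodes with Fgb had more Gc and less Gcg. In glucagon class barcodes with 0, 1 to 9 and 10 or more Fgb UMIs, Gc stood at 206 (200 to 213), 326 (298 to 355) and 492 (401 to 598) hormone-free CPM in control. The values in the TBL/RβKO-labelled library were 199 (194 to 205), 304 (285 to 325) and 524 (471 to 582). Gc was higher at each step in both. Median Gcg per 10000 went the other way, with 1897, 1715 and 1137 in control and 1381, 1350 and 1037 in the other library. Ttr was also lower with 10 or more Fgb UMIs, at 3602 against 10010 with none in control and at 4293 against 6115 in the other library. Median Ppy per 10000 over the same steps was 8.03, 7.55 and 37.7 in control and 8.16, 7.20 and 60.6 in the other library. Polypeptide class barcodes with 10 or more Fgb UMIs had a median Gcg of 181 and 107 per 10000, against 8.14 and 6.48 with none. The part of this second hormone in the Gc, Gcg and Ttr differences was not tested. Spearman's rho of Fgb with Gc was 0.17 and 0.23 in the glucagon class and 0.30 and 0.51 in the polypeptide class. With Gcg it was -0.06 and -0.04 in the glucagon class, and 0.21 and 0.32 in the polypeptide class.

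**Figure D4:**
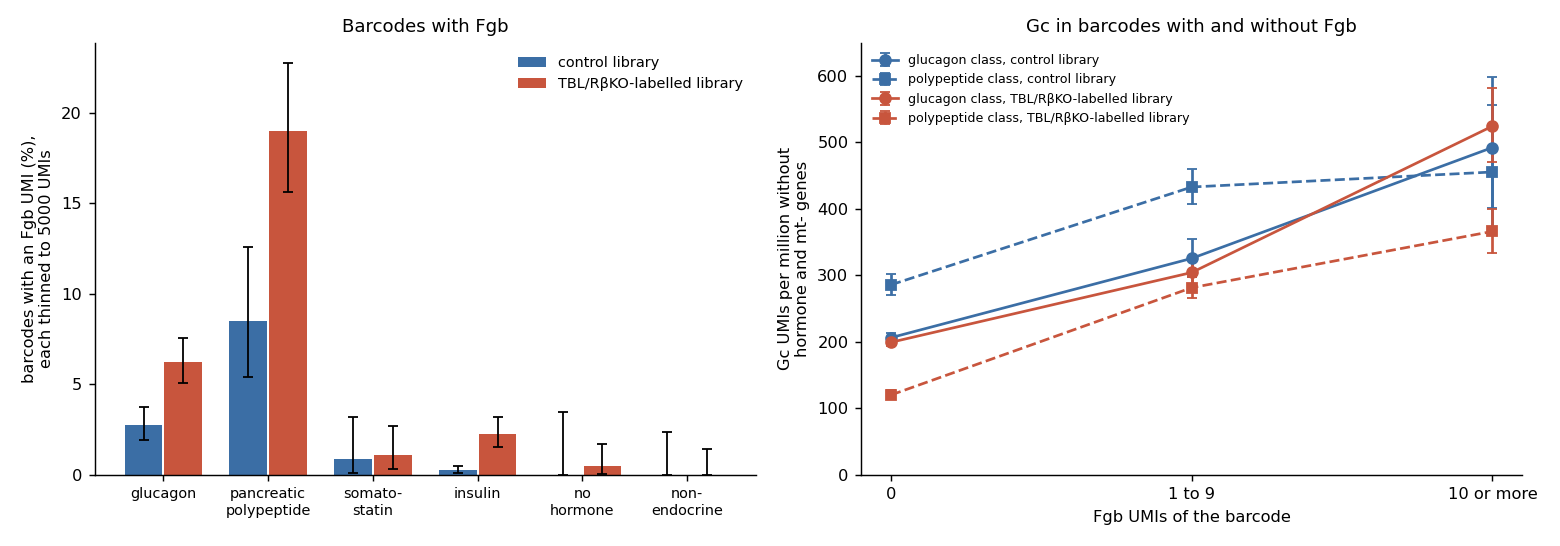
Left, share of barcodes with an Fgb UMI (%) in each class after thinning to 5000 UMIs, bars from 0 with exact binomial 95% intervals. Right, hormone-free CPM of Gc in glucagon and polypeptide class barcodes with 0, 1 to 9 and 10 or more Fgb UMIs, with exact Poisson 95% intervals; Fgb was found most often in the polypeptide class, and Gc was higher in barcodes with Fgb.

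The partner chains of fibrinogen had fewer UMIs than Fgb in the hormone classes, apart from the control insulin class, where Fgg had 144 UMIs and Fgb 135. In the insulin class of the TBL/RβKO-labelled library, the 24 barcodes with 10 or more Fgb UMIs held 111 Fga UMIs and 146 Fgg UMIs, each in 6 barcodes, while the 1230 barcodes without Fgb held 7 and 31. In the glucagon class of that library Fga had 0 UMIs and Fgg 84, of which 60 lay in 7 of the 35 barcodes with 10 or more Fgb UMIs. Albumin, the main liver plasma protein, had 17 and 10 UMIs in the glucagon classes, and 0 in barcodes with 10 or more Fgb UMIs there.

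Each gene's pattern over the 10 sums, 5 classes of 2 libraries, was compared with that of 8619 genes at 10 CPM or more in both glucagon sums, as Pearson's r of log2(CPM + 1). The sums share libraries and depths, and r is a description. The genes most like Gcg were Ppp1r37 (r = 0.98), Tmsb15b1 (0.97), Tmem63a (0.97), Vipr1 (0.97), Tmsb15b2 (0.96), Aard (0.96), Tmsb15l (0.96) and Pithd1 (0.95). Tmsb15b1, Tmsb15b2 and Tmsb15l are near copies of each other, between which reads may be split. Ttr was place 16 with 0.94, Gc place 669 with 0.74 and Fgb place 2023 with 0.56.

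Lists of related genes were read against all genes of the glucagon class, of which 0.682% lay 2-fold or more higher and 0.0454% lower, so that a count of 0 in a short list is no result about that list. Of 13 α-cell transcription factors 9 were compared, none was 2-fold higher or lower, and their median log2 ratio was 0.0085 beside 0.10 for all genes. Irx1 had the lowest value, with 62.1 and 50.4 CPM and a log2 ratio of -0.30 (-0.40 to -0.21), and Hnf4a the highest, with 0.32 (0.19 to 0.44). Etv1 had 552 and 521 CPM, Neurod1 237 and 284 CPM, and Pax6, an activator of Gcg, 199 and 240 CPM. All 11 α-cell marker genes were compared and none passed 2-fold, with a median of 0.02. Dpp10 was lowest with -0.32 and Slc38a5, a glutamine transporter, highest with 0.44. Sphkap had 1302 and 1362 CPM, Nxph1 1148 and 1282 CPM, and Peg3 1086 and 1108 CPM.

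Of the genes that process and pack proglucagon 11 of 11 lay within 2-fold, as nearly all genes of the class did, with a median of -0.09. Pcsk2, which cuts proglucagon to glucagon, had 5598 CPM (control) and 5644 CPM, a log2 ratio of 0.01 (0.00 to 0.02), beside the -0.40 of Gcg. Pcsk1, which cuts it to glucagon-like peptides, had 11.0 and 14.1 CPM in the glucagon class. The granins Chga and Chgb had log2 ratios of 0.28 and 0.51, the convertase inhibitor Pcsk1n -0.09, and Vgf the lowest value of -0.44.

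Receptors of the proglucagon peptides were sparse in the glucagon class. They were listed with Gipr, the receptor of a peptide not made from proglucagon, and with the peptidase Dpp4. Of the 5 genes of this list 3 were compared, Glp1r, Gipr and Dpp4, with 1 higher by 2-fold and 0 lower. Glp1r had 17.2 and 44.4 CPM, a log2 ratio of 1.37 (1.22 to 1.52). Its insulin class levels were 291 and 531 CPM. Gcgr, the glucagon receptor, had 34 UMIs (1.18 CPM) and 144 UMIs (4.29 CPM) in the glucagon class, under the 10 CPM limit, and 14.5 and 30.7 CPM in the insulin class. Gipr had a log2 ratio of -0.16, and Dpp4, a peptidase that cuts glucagon-like peptides, -0.37.

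Of 21 liver plasma proteins other than the members, 2 reached the limit in the glucagon class. Rbp4, the partner of transthyretin, had 757 CPM in control and 487 CPM in the TBL/RβKO-labelled library, a log2 ratio of -0.63 (-0.66 to -0.60), near the -0.61 of Ttr. In the insulin class it had 273 and 426 CPM, and it was highest in the somatostatin class with 5281 and 3804 CPM, where Ttr was low. Ambp had 21.8 and 20.1 CPM. Apoa2, under the limit, had 10.3 and 8.50 CPM, and Fgg 0.695 and 2.50 CPM. Of 10 carrier partners of transthyretin and the vitamin D binding protein 4 were compared, 0 passed 2-fold, and the median was -0.05. Vdr, the vitamin D receptor, had 70.7 and 80.8 CPM and the thyroid hormone receptor Thrb 93.0 and 86.9 CPM.

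**Figure D5:**
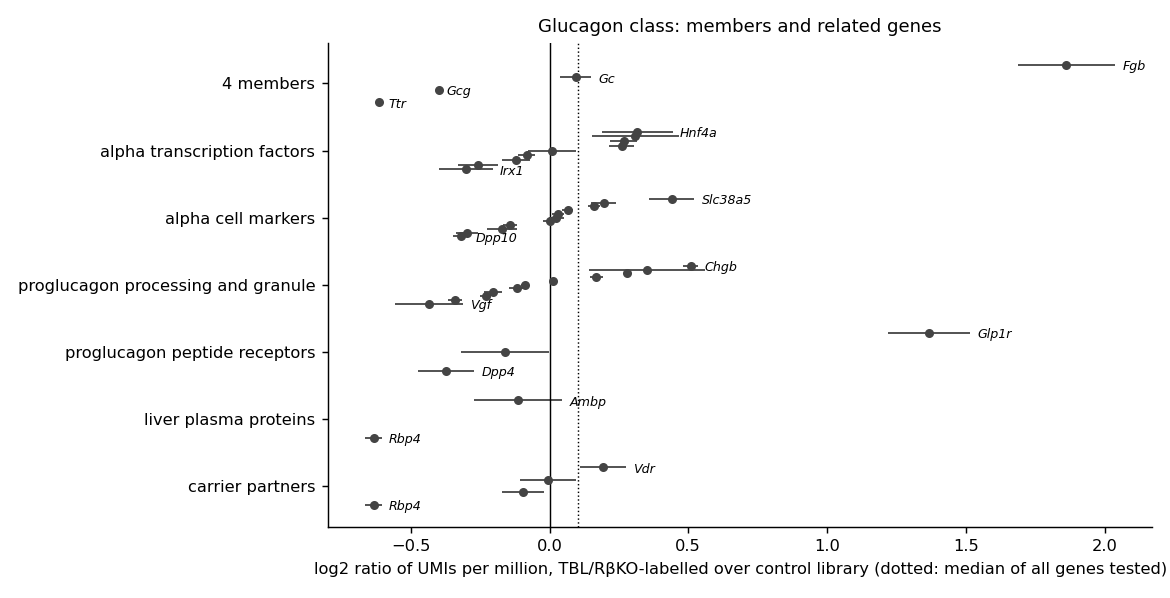
Log2 ratio of CPM in the glucagon class, the TBL/RβKO-labelled library over control, for the 4 members and for the genes of each list at 10 CPM or more, with exact conditional 95% intervals of counting error; the dotted line is the median of all genes compared (0.10). Fgb at 1.86 and Glp1r at 1.37 lie apart, while Ttr and Rbp4 have the lowest values.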

How the data were processed

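Islet cells were captured with the 10x Genomics 3′ kit. Per the labels and processing notes, the authors aligned and counted the reads with Cell Ranger 7.1.0 on GRCm39 (mm39) with Cre sequences added. The deposited values are whole-number UMI counts per gene and barcode, not normalized, 1 matrix per library. Here barcodes were filtered and classed as described above, counts were summed by library and class, and CPM was taken over all UMIs of the sum. With 1 library per group no test across samples exists. Intervals (exact Poisson, Clopper-Pearson, Newcombe and conditional binomial) were computed with SciPy 1.17.1. The coverage of the conditional binomial interval alone was checked on simulated counts. These counts were drawn independently and so hold no clumping of UMIs in single barcodes. Genes at 10 CPM or more over both sums were compared, and called past 2-fold by size alone. Scrublet in scanpy 1.11.5 marked 84 of 6486 and 1 of 5346 barcodes as doublets by its own limit, which had not worked in the second library. So doublets stayed in, and an alternative left out the highest scores at 0.8% per 1000 barcodes. Alternatives also changed gene limits, class limits, scaling, free RNA and weights. The members and gene lists were chosen with earlier results of these data known. Named genes were the members, those of a list past 2-fold in the glucagon class with 100 or more UMIs (otherwise its highest and lowest), up to 3 of highest level, marker lists being given mainly as sums, the 8 most like Gcg, and Tbl1x, Tbl1xr1 and Cre. Insulin steps, Cre splits and partner chains were added after the data had been seen. Some genes of the lists are not reported here.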

Additional observations from a re-analysis of the deposited data

Results flagged for a closer look

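Some members had log2 ratios of opposite sign in the glucagon class and in another class, with intervals of counting error that excluded 0 in both. These differences were not tested, since each group had 1 library. For Gcg the insulin class ratio minus the glucagon class ratio was 0.86 on the log2 scale, from 0.46 and -0.40, and the insulin class value changed sign with another scaling. For Ttr the same difference was 2.46, from 1.84 and -0.61. For Gc the somatostatin class minus the glucagon class gave -0.51, from -0.42 and 0.09. The polypeptide class minus the glucagon class gave -0.70, from -0.61 and 0.09.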

How the results depend on the processing

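Of 94 alternative values (17 chosen after seeing the data), 44 stayed within the counting interval of the reported value, or within 1.5 times a count, 49 moved and 1 reversed. The direction of every ratio was otherwise kept. Log2 ratios are given for Gcg, Ttr, Gc and Fgb in that order, each naming those outside its interval. The cause of these moves was not tested. With under 6000 genes the glucagon class gave -0.36, -0.55, 0.16 and 2.05, the insulin class 1.16, 2.61, 0.92 and 2.78, and the share difference was 22.8 points. Without the highest doublet scores the glucagon class gave -0.36 (Gcg) and -0.57 (Ttr), and the insulin class 0.97 (Gcg), 2.09 (Ttr) and 4.55 (Fgb). Without hormone and mitochondrial genes in the total the glucagon class gave -0.48 (Gcg), -0.70 (Ttr) and 0.013 (Gc), and the insulin class -0.021 (Gcg, reversed), 1.36 (Ttr), 0.32 (Gc) and 3.80 (Fgb). With free RNA subtracted the glucagon class gave -0.40 (Gcg), -0.63 (Ttr) and 0.033 (Gc), and the insulin class 0.50 (Gcg) and 1.96 (Ttr). Free RNA was taken as the mean of non-endocrine barcodes, 47.4 and 49.3 Gcg UMIs, where the medians were 15 and 14. There 10 barcodes held 70.6% and 71.3% of the Gcg UMIs, so these means overstate free RNA. They also lie above the insulin class medians of 28 and 36 Gcg UMIs, and values under 0 were set to 0. A class limit of 300 gave -0.36 (Gcg) and -0.59 (Ttr) in the glucagon class and 0.47 (Gcg) in the insulin class. Without barcodes of several hormones the glucagon class gave -0.34 (Gcg), 0.17 (Gc) and 2.25 (Fgb), the insulin class 0.24 (Gcg), 2.66 (Ttr) and 1.00 (Gc), and the share difference was 42.1 points. Means over barcodes gave -0.39 (Gcg) and -0.59 (Ttr) in the glucagon class, and 0.65 (Gcg), 1.82 (Ttr) and 4.62 (Fgb) in the insulin class. With over 500 genes the glucagon class gave -0.40 (Gcg) and -0.60 (Ttr), and the insulin class 1.86 (Ttr). Without the 10 barcodes highest in the gene the glucagon class gave -0.39 (Gcg), -0.63 (Ttr) and 2.55 (Fgb), and the insulin class 0.50 (Gcg) and 1.70 (Ttr). The count of genes past 2-fold in the glucagon class, 64, was 49 to 66 under other settings and 1499 with every gene counted in both sums, a filter that admits far sparser genes.

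Depth limited Fgb and the plasma proteins, which rested on few UMIs in few barcodes. No paired analysis was possible because each group had 1 library. Intervals leave out the spread between mice and between islet preparations, and the libraries also differ in insulin RNA outside the insulin class. A class cut from a hormone level is a range, not a cell type.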

Other observations

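Transthyretin and its partner Rbp4 were placed differently over the classes. For each library the somatostatin class had the most Rbp4, 5281 CPM in control and 3804 CPM in the TBL/RβKO-labelled library, and the lowest Ttr of the hormone classes, 267 and 211 CPM.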
